A study of Mus musculus with 2 samples.

Results

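Imprinted genes are expressed mainly or only from the copy inherited from one parent. The genes described here are 37 imprinted genes of the mouse, taken as a fixed list and arranged by the 15 chromosomal clusters that hold them. Of the 37, 36 had a row in the deposited gene tables, out of 43346 gene rows in all. Peg13, an RNA gene inside an intron of Trappc9 (chr15:72805600-72810324, minus strand, GRCm38), had no row and was not analysed here. The libraries came from the neural tube, which forms the brain and spinal cord, of B6NCrl embryos at embryonic day 14.5. There was 1 group of 2 total RNA libraries, without any genotype or treatment contrast. Replicate 1 was the tube of pup 1 from pregnant female 1, and replicate 2 that of pup 1 from pregnant female 2. Each library was made from 10 ng of RNA above the size of small RNAs, and spike-in RNA was added. For sex, the labels state pooled male and female, although each names a single pup.

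At most imprinted clusters a stretch of DNA is methylated in only one of the germ lines, and the mark is kept after fertilisation by the zinc finger protein ZFP57 and its partner TRIM28. The unmethylated copy then acts as an insulator or as the promoter of a long non-coding RNA, and it sets which parental copy of the neighbouring genes is used. Many of these genes act on growth, and several are strongly expressed in the nervous system. The strain is inbred and the deposited values do not separate the alleles. The parental allele given for each gene below is therefore background and was not measured.

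Among the members with a promoter in the RefSeq table (29 of 37, with 43 promoters, GRCm38.p6), the hexanucleotide TGCCGC was searched for on both strands, because ZFP57 binds it when it is methylated. Each window runs from 250 bases before to 50 bases after the start, so it is 300 bases long. The windows of 5 members are shown because their start sites are described in the results that follow, and the first 4 are those of the paternally expressed members with most matches, ties being ordered by the number of CpG dinucleotides. Capitals mark the hexanucleotide, which on these strands reads as its reverse complement.
Mest, chr6:30737800-30738099, strand +: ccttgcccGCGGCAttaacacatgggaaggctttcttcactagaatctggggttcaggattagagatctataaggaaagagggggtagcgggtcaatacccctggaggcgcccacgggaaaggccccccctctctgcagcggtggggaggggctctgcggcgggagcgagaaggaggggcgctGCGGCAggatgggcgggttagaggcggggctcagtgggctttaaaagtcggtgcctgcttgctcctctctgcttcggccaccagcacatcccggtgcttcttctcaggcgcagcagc
Plagl1, chr10:13090582-13090881, strand +: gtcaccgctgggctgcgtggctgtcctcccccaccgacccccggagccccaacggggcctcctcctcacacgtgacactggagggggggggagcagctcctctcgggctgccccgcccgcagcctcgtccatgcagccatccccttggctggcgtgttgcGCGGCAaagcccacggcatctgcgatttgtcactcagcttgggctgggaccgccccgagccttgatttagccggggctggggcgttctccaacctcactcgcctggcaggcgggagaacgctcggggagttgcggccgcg
Nnat, chr2:157559828-157560127, strand +: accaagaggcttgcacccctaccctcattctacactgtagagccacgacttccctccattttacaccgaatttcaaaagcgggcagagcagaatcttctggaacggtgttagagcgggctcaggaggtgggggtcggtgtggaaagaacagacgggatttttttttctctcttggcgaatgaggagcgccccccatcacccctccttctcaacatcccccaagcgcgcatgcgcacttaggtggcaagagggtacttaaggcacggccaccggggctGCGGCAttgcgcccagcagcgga
Igf2, chr7:142661222-142661521, strand −: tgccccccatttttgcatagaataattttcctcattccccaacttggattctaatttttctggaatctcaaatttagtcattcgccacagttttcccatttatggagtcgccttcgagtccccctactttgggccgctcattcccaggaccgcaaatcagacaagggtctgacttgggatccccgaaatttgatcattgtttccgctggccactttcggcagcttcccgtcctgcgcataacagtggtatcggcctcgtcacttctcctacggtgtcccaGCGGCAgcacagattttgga
Grb10, chr11:12037371-12037670, strand −: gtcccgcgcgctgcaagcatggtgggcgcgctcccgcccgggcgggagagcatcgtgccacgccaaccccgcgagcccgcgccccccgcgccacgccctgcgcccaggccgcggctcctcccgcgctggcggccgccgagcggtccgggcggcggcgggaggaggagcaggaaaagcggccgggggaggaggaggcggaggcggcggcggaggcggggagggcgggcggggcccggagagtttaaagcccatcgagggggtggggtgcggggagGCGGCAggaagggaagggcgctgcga

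At least 1 match was found in 11 of the 43 member promoters (25.6%), against 11.6% of all 32851 promoters of that length. Member promoters also held more CpG dinucleotides, with a median of 15 against 7, and among promoters with at least 10 CpG the shares with a match were 34.5% (10 of 29) and 22.5%. The 13 matches in member promoters all lay in the reverse orientation, whereas over all promoters 2008 were forward and 2404 reverse. A pair of Mest promoters that lie 3 bases apart each hold the same 2 matches, so these windows are not separate observations. By parental allele, 6 of 23 promoters of paternally expressed genes, 4 of 14 of maternally expressed genes and 1 of 6 of Gnas and Grb10 held a match. Snrpn, Commd1, Copg2, Zim1 and Meg3 each had 1 window with 1 match. The upstream Grb10 window had 45 CpG, the largest number among the member promoters, followed by the Gs alpha promoter of Gnas with 40. A match is a stretch of letters and does not show that ZFP57 bound there.

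Imprinted genes were for the most part expressed in this tissue, and some were among its most abundant RNAs. Of the 36 genes, 32 (88.9%) reached 1 TPM (transcripts per 1000000, a level scaled by transcript length and by the library's total) in both libraries, against 34.7% of all gene rows. A level of 100 TPM in both was reached by 10 genes (27.8%) from 7 clusters, against 3.73% of all gene rows. Among protein-coding rows alone, 26 of 30 members reached 1 TPM in both libraries, against 13047 of 21474 rows. At 100 TPM these counts were 8 members and 1537 rows. These 10 held 94.5% of the summed TPM of the imprinted genes in replicate 1 and 91.7% in replicate 2. The median imprinted gene stood at 32.1 TPM in replicate 1 and 37.1 in replicate 2 (34.6 ± 3.48, SD, n = 2). The median over all gene rows was 0.10 and 0.09 TPM, and over protein-coding rows 4.88 and 5.67. In mean TPM, 17 of the 36 lay at or above the 90th percentile of gene rows.

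**Figure D1:**
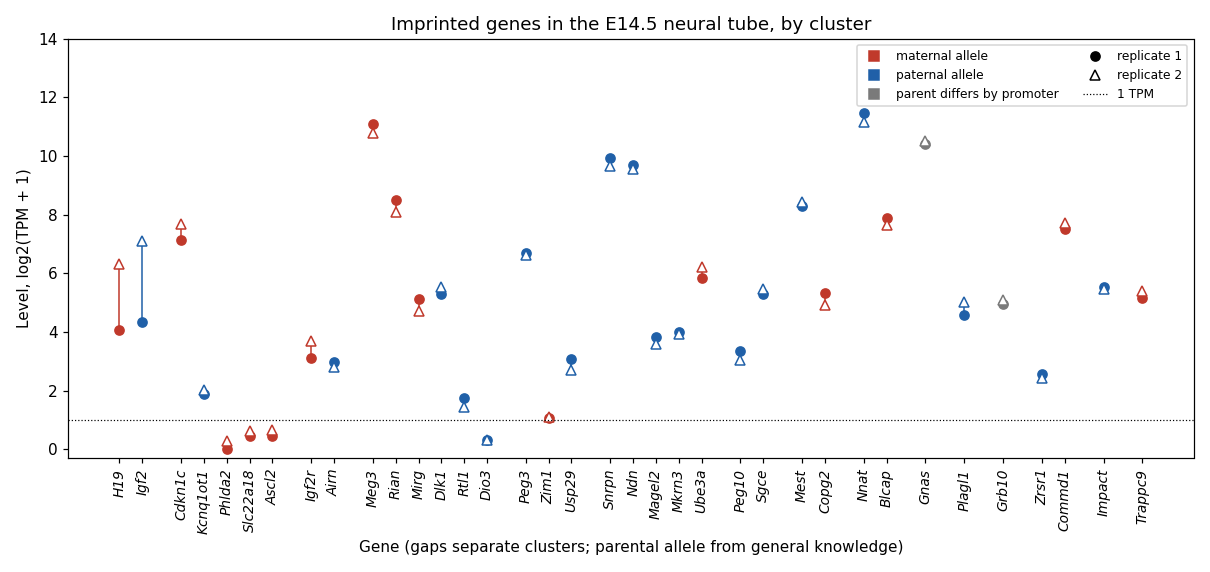
Level of the 36 imprinted genes on the log2(TPM + 1) scale, with genes along the horizontal axis by cluster, filled circles for replicate 1, open triangles for replicate 2 and colour for the parental allele known from the literature. Nnat, Meg3 and Gnas are the highest points, Phlda2, Slc22a18, Ascl2 and Dio3 lie under the dotted line at 1 TPM, and H19 and Igf2 have the widest gaps between the libraries.

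Both libraries expressed genes of neurons and neural progenitors, which do not separate the neural tube from other developing nervous tissue. All 8 genes of a neuron list and all 8 of a neural progenitor list reached 1 TPM in both libraries, and their summed levels were 3623 and 3515 TPM for neurons and 2399 and 2619 for progenitors in replicates 1 and 2. Genes of adjoining tissue were higher in replicate 2. The 12 genes of a meninges and fibroblast list summed to 53.1 and 1129 TPM, the 9 of a dorsal root ganglion list to 98.0 and 430, the 9 endothelial genes to 95.6 and 220, and the 8 microglial genes to 91.9 and 159. The 9 skeletal muscle genes were lower, at 48.3 and 23.6 TPM. No gene of these lists was at 0 counts in either library. In total RNA of a whole tissue, more cells of a type and more RNA per cell cannot be told apart. Counts in gene rows totalled 32255363 in replicate 1 and 25428747 in replicate 2.

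The libraries were compared by ratios of replicate 2 to replicate 1, from counts scaled by the trimmed mean of M values (TMM), with exact 95% intervals that cover counting error only. With 1 sample per litter and no second group there is no test of these ratios. Ratios were read for the 33 imprinted genes whose mean count was 10 or more. Of these, 3 (9.09%) were at least 1.5-fold higher in replicate 2, against 10.8% of 17623 gene rows, and 1 (3.03%) was at least 1.5-fold higher in replicate 1, against 8.47%. Their median log2 ratio was −0.13, beside 0 for all rows. The 3 higher in replicate 2 were Igf2, H19 and Igf2r, and the 1 higher in replicate 1 was Peg10. The other 29 lay between 0.672 and 1.49. Scaling by spike-in counts moves every log2 ratio up by 0.55, and with it 13 of the 33 imprinted genes passed 1.5-fold in replicate 2, against 44.4% of all rows, and 0 in replicate 1, against 2.25%. Of the 18 ratios under 1, 16 then turn above 1, as do 81.6% of such ratios over all rows, so the direction of these smaller ratios depends on the scaling. An upward shift cannot move a ratio already above 1 to the other side, so it does not probe Igf2, H19 and Igf2r. Peg10 and Rtl1 stayed under 1, at log2 ratios of −0.12 and −0.02.

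**Figure D2:**
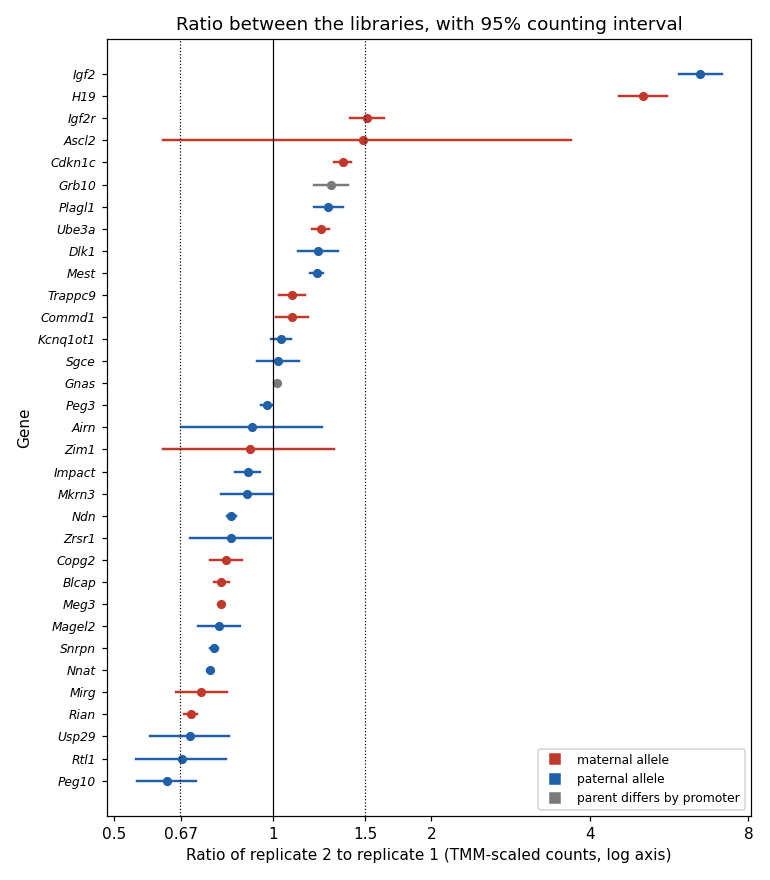
Ratio of replicate 2 to replicate 1 for the 33 imprinted genes whose mean count was 10 or more, from TMM-scaled counts on a log axis, with points for ratios, bars for 95% counting intervals and dotted lines at 1.5-fold in each direction. Igf2 (6.48) and H19 (5.04) stand apart from the rest, and Ascl2 has the widest interval, from 0.619 to 3.69.

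The H19/Igf2 cluster on chromosome 7 (chr7:142575529-142666816) differed most between the libraries. Igf2 encodes a growth factor of the fetus and is expressed from the paternal copy in most tissues, while in the brain its known sources include the meninges and the choroid plexus. It stood at 19.1 TPM in replicate 1 and 138 in replicate 2, from 541 and 2771 counts. Its ratio was 6.48 (5.91 to 7.13). H19, a maternally expressed long non-coding RNA that shares enhancers with Igf2, stood at 15.6 and 78.6 TPM, from 452 and 1802 counts, with a ratio of 5.04 (4.55 to 5.61). Both genes were high in replicate 2 and low in replicate 1, and Igf2 lay above H19 in each library, by 0.28 and 0.80 on the log2(TPM + 1) scale. In the same pair of libraries all 12 genes of the meninges and fibroblast list were at least 1.5-fold higher in replicate 2, with ratios from 5.13 to 48.4, as were 8 of the 9 dorsal root ganglion genes and all 9 endothelial genes. The skeletal muscle list went the other way, with 8 of its 9 members past the 1.5-fold limit toward replicate 1 and a median log2 ratio of −1.09. The part of any of these tissues, muscle included, in the Igf2 and H19 ratios was not tested.

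Igf2 transcripts were annotated from 7 groups of 5′ ends, each group holding ends that lie within 500 bases of each other. In order from upstream, the group at position 142666816 held 28.9% of the gene's TPM in replicate 1 and 33.3% in replicate 2, and the group 7327 bases downstream held 9.9% and 9.1%. The group 9320 bases downstream held 15.0% and 15.2%, and the most downstream, 13786 bases on, held 45.7% and 41.1%. Every one of these groups was higher in replicate 2, by TPM ratios of 8.32, 6.59, 7.33 and 6.50, so the higher level was not limited to 1 start. The Igf2 promoter window shown above, at start 142661271, coincided with none of the groups that held 10% of the TPM. The transcript at the most downstream start, Igf2-208, is 958 bases long, and 62.8% of the exon bases of Igf2 are shared on the same strand with Gm49394, another annotated gene, so the division among starts is uncertain. H19 had groups 757 bases apart that held 28.2% and 71.8% of its TPM in replicate 1 and 27.9% and 72.1% in replicate 2.

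**Figure D3:**
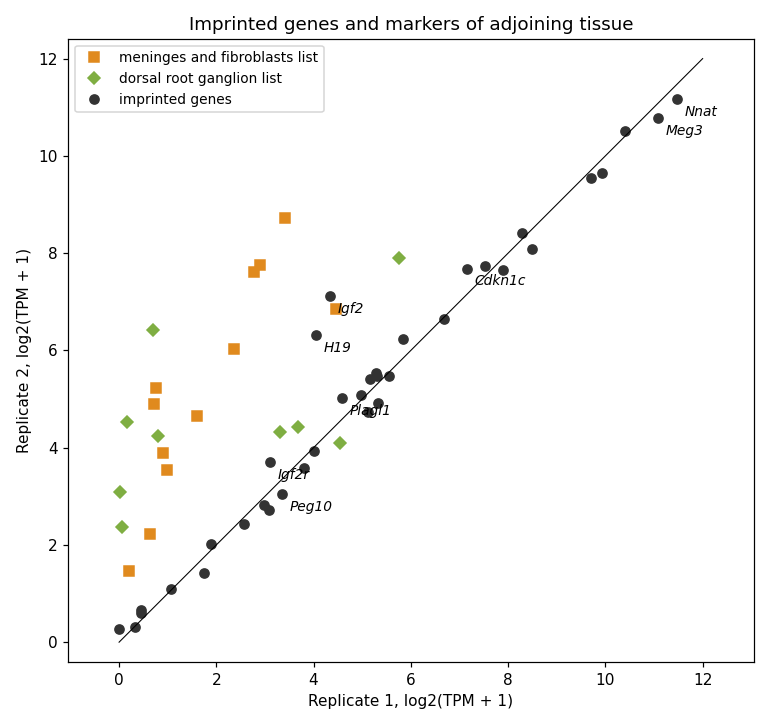
Levels in replicate 1 (horizontal axis) and replicate 2 (vertical axis), both log2(TPM + 1), of the 36 imprinted genes (circles), the meninges and fibroblast list (squares) and the dorsal root ganglion list (diamonds), with a line of equal level. Igf2 and H19 lie above the line, as do the meninges list and most of the dorsal root ganglion list. Most other imprinted genes lie close to the line.

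The neighbouring Kcnq1ot1 cluster (chr7:142966829-143503150) was expressed mainly through 1 gene. Cdkn1c encodes the cell cycle inhibitor p57 and is expressed from the maternal copy. It stood at 141 TPM in replicate 1 and 204 in replicate 2, with a ratio of 1.36 (1.31 to 1.41). Kcnq1ot1, the paternally expressed non-coding RNA that runs antisense through Kcnq1 and silences the cluster, stood at 2.73 and 3.03 TPM. Its transcript is 84395 bases long, so these levels rest on 4664 and 3823 counts. Cdkn1c exceeded it by 5.25 and 5.67 on the log2(TPM + 1) scale. The other maternally expressed members, best known for roles in the placenta, were under 1 TPM. Ascl2, a trophoblast transcription factor, stood at 0.36 and 0.58 TPM from 11 and 13 counts. Slc22a18, a membrane transporter gene, stood at 0.36 and 0.52 TPM from 7 and 8 counts. Phlda2, which limits placental growth, had 0 counts in replicate 1, which allows up to 3, and 2 counts in replicate 2.

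In the Igf2r/Airn cluster (chr17:12682406-12860136) the coding gene and the long non-coding RNA were at similar low levels. Igf2r encodes the receptor that clears the Igf2 protein and is expressed from the maternal copy in most tissues, whereas in neurons its expression is known to come from both copies. It stood at 7.62 and 12.1 TPM, with a ratio of 1.51 (1.40 to 1.63), and this interval spans the limit of 1.5-fold. Airn, the paternally expressed RNA that overlaps the start of Igf2r in antisense, stood at 6.90 and 6.04 TPM from 104 and 75 counts, and its interval (0.669 to 1.24) holds 1. Its expression-weighted transcript length was 843 bases, while the locus spans 118826 bases, and the share of unspliced RNA was not measured. On the log2(TPM + 1) scale Igf2r exceeded Airn by 0.13 and 0.89. The mean of 0.51 is under the SD of 0.54, so the genes did not differ beyond the spread between the libraries.

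The Dlk1/Meg3 cluster on chromosome 12 (chr12:109452823-110281097) was led by Meg3 and Rian, which are maternally expressed. Meg3, a long non-coding RNA of the neuronal nucleus, was the second highest imprinted gene, at 2167 TPM in replicate 1 and 1750 in replicate 2. Rian, which hosts small nucleolar RNAs, stood at 361 and 270 TPM. Mirg, which hosts many miRNAs, stood at 34.0 and 25.6 TPM. All 3 were lower in replicate 2, with ratios of 0.797, 0.698 and 0.732, and they kept their spacing: Meg3 exceeded Rian by 2.58 and 2.69 and Rian exceeded Mirg by 3.37 and 3.35 on the log2(TPM + 1) scale. The TMM ratios of all 3 turn above 1 with spike-in scaling. Among the paternally expressed coding genes Dlk1 lay above Mirg and the other 2 below it. Dlk1, a transmembrane relative of the Notch ligands, stood at 37.9 and 45.2 TPM, under Meg3 by 5.80 and 5.25. Rtl1, a gene derived from a retrotransposon, stood at 2.37 and 1.69 TPM, with 1.49-fold more in replicate 1 (1.23 to 1.82). Dio3, a deiodinase that inactivates thyroid hormone, stood at 0.25 and 0.24 TPM from 8 and 7 counts.

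Rtl1 shares its locus with miRNAs of the opposite strand, which are processed from the maternally expressed RNA and are complementary to the Rtl1 message. The RefSeq miRNA table placed 6 hairpins on that strand inside Rtl1. A mature form from 5 of them is shown to make the antisense arrangement visible, with the seed (bases 2 to 8) in capitals.
mmu-miR-127-3p: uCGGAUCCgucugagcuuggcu
mmu-miR-136-5p: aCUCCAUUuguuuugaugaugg
mmu-miR-431-5p: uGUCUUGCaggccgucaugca
mmu-miR-433-3p: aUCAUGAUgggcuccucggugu
mmu-miR-434-3p: uUUGAACCaucacucgacuccu

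No seed was shared among these. Over all members, 29 hairpins lay inside 8 genes, with 14 in Mirg, 7 in Rtl1 (6 antisense and 1 sense), 3 in Rian and 1 each in Meg3, H19, Igf2, Mest and Usp29. The libraries were made from RNA above the length of mature miRNAs, so the miRNAs themselves were not measured. The strand setting of the authors' counting is not given in the sources used here. If strand was not used, reads from the antisense RNA cannot be told apart from Rtl1 reads, so the Rtl1 counts are uncertain.

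The maternal RNAs of this cluster had several annotated starts with a sizeable share. For Meg3 the most upstream group held 49.3% and 51.8% of the TPM. The group 1022 bases downstream held 17.7% and 12.3%, and the group 5390 bases downstream 15.8% and 16.8%. A start 4397 bases downstream held 6.9% of the TPM in each library, but its transcript, Meg3-209, is 14548 bases long. In counts it was the largest group, at 43913 and 25950, against 32778 and 21032 for the most upstream group. The promoter window with a TGCCGC match for Meg3 lies beside that upstream group, which starts at 109541001 to 109541007. Rian was divided mainly between groups 42201 bases (32.6% and 35.1%) and 46741 bases (41.8% and 42.1%) from its first start. Mirg was divided among groups 5217 bases (22.0% and 21.2%), 7938 bases (40.5% and 47.3%) and 18139 bases (31.6% and 23.0%) from its first. These 3 genes have 11, 19 and 12 annotated transcripts, and many are partial, so an annotated 5′ end need not be a promoter. For Dlk1 the upstream group held 7.34 and 8.59 TPM, and the group 632 bases on held 28.1 and 36.0 TPM, which is 74.1% and 79.8% of the gene.

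In the Snrpn cluster (chr7:59228750-62420139), the mouse counterpart of the Prader-Willi and Angelman syndrome region, the paternally expressed genes fell into a high pair and a low pair. Snrpn, which encodes a protein of the splicing machinery, stood at 970 and 802 TPM. Ndn, a MAGE family gene of postmitotic neurons, stood at 837 and 746 TPM. They differed by 0.21 and 0.10 on the log2(TPM + 1) scale. Magel2, another MAGE family gene, stood at 13.04 and 11.02 TPM, and Mkrn3, a ring finger gene, at 15.02 and 14.35. Ndn lay above Magel2 by 5.90 and 5.96. Ube3a, the ubiquitin ligase gene that neurons express from the maternal copy, stood at 56.3 and 74.2 TPM. With TMM scaling it was the single member here with a ratio over 1, at 1.23 (1.19 to 1.28). The paternal genes had ratios from 0.773 for Snrpn to 0.894 for Mkrn3, whose interval ends at 1.001. All 4 turn above 1 with spike-in scaling, at log2 ratios from 0.18 for Snrpn to 0.39 for Mkrn3, beside 0.85 for Ube3a. Snhg14, the paternal RNA that runs antisense to Ube3a and shares 1803 exon bases with it, stood at 324 and 276 TPM, so Ube3a counts are uncertain where strand was not used. Of the Snrpn TPM, 95.6% and 95.4% came from the start at 60005111 and the rest from a start 135108 bases upstream. Snurf, whose exons overlap those of Snrpn by 216 bases on the same strand, had its own row at 465 and 506 TPM. That row is itself 216 bases long, so its level depends on how shared reads were divided and is uncertain.

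In the Peg3 cluster (chr7:6671269-6967219) the members lay far apart in level. Peg3, a paternally expressed zinc finger gene with a large coding exon, stood at 102 TPM in replicate 1 and 98.5 in replicate 2. Its ratio was 0.974 (0.951 to 0.998), and its 2 start groups lay all but wholly on the upstream one. Usp29, a paternally expressed deubiquitinase gene that shares the Peg3 promoter region on the other strand, stood at 7.47 and 5.56 TPM. The single Usp29 transcript quantified here begins far downstream, at 6961160. Zim1, a maternally expressed zinc finger gene, stood at 1.11 and 1.12 TPM from 73 and 52 counts. Peg3 exceeded Usp29 by 3.61 and 3.92 and Zim1 by 5.61 and 5.55 on the log2(TPM + 1) scale.

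The Nnat/Blcap cluster (chr2:157556362-157571274) held the highest imprinted gene. Nnat, a paternally expressed proteolipid gene that lies in an intron of Blcap, stood at 2823 TPM in replicate 1 and 2287 in replicate 2, with a ratio of 0.760 (0.750 to 0.770). All 10 of its annotated transcripts reached 1 TPM in both libraries, and 99.9% of the TPM came from the start group at 157560078, the start of the promoter shown above. Blcap, the maternally expressed host gene in brain, stood at 237 and 200 TPM with a ratio of 0.799. Nnat exceeded Blcap by 3.57 and 3.51 on the log2(TPM + 1) scale, so the pair kept its spacing while both were lower in replicate 2 with TMM scaling. Both ratios turn above 1 with spike-in scaling.

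Gnas (chr2:174284320-174346744) encodes the stimulatory G protein alpha subunit and several other products from separate promoters, whose parental use differs. The gene stood at 1356 TPM in replicate 1 and 1458 in replicate 2, with a ratio of 1.02 (1.01 to 1.03). The Gs alpha promoter, used from both copies in most tissues, held 88.0% and 89.2% of the TPM (1194 and 1300 TPM), and 1 transcript, Gnas-208, carried 82.9% and 82.8%. The most upstream start, that of the maternally expressed neuroendocrine protein NESP55, held 3.6% and 3.8% (48.2 and 56.1 TPM). The start of XL alpha s, a paternally expressed long form of the alpha subunit, lay 13539 bases from the first and held 1.5% and 1.8% (20.8 and 26.8 TPM). The exon 1A start, a paternally expressed non-coding transcript, lay 43250 bases from the first and held 4.3% and 3.6% (58.0 and 51.8 TPM). A group 936 bases from the first held 1.7% and 1.0% (23.4 and 15.2 TPM). Gs alpha lay far above the other starts in both libraries. Nespas, the paternal antisense RNA that shares 988 exon bases with Gnas, stood at 3.95 and 2.54 TPM.

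Grb10 (chr11:11930508-12038683), an adaptor protein gene that restrains growth signalling, is known to be expressed from the maternal copy in most tissues and from the paternal copy, through a downstream promoter, in neurons. It stood at 30.3 TPM in replicate 1 and 32.7 in replicate 2, with a ratio of 1.29 (1.20 to 1.39) by counts. On the log2(TPM + 1) scale the difference was 0.11, which lies under that interval. The upstream start at 12037401, beside the CpG-rich window shown above, held 39.4% of the TPM in replicate 1 and 55.1% in replicate 2. A start group 11951 bases from the first held 55.9% and 44.1%. The downstream start in the RefSeq promoter table, at 12027971, held 1.1% and 0.0% (32 and 0 counts), so the start group with the large downstream share is not at that promoter. The order of these starts therefore differed between the libraries, with 11.92 and 18.03 TPM upstream against 16.94 and 14.44 downstream. The downstream group had 135 and 80 counts and its main transcript, Grb10-207, is 430 bases long, whereas the upstream transcript of 5061 bases had 1199 and 1339 counts. In counts the upstream start was thus the larger in both libraries, and the TPM shares depend on that short model.

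**Figure D4:**
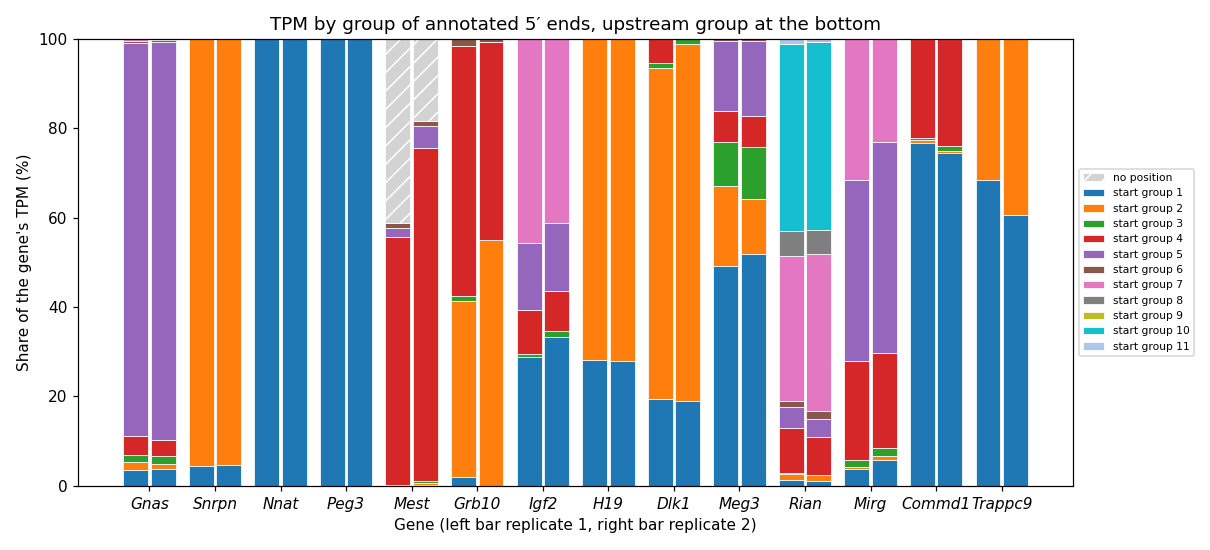
Share of each gene's TPM (vertical axis, percent) by group of annotated 5′ ends for 14 imprinted genes, with the left bar for replicate 1 and the right bar for replicate 2, the most upstream group at the bottom and hatching for transcripts without a position in the annotation used. Gnas and Snrpn rest on 1 main group at about the same share in both libraries, while the shares of Mest and Grb10 differ between the libraries.

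In the Mest/Copg2 cluster (chr6:30723547-30896794), Mest, a paternally expressed gene of the alpha/beta hydrolase family, stood at 311 TPM in replicate 1 and 341 in replicate 2, with a ratio of 1.21 (1.18 to 1.25). Its main start group, at 30738050, is the start of the promoter with 2 matches shown above, and it held 55.5% and 74.5% of the TPM. A transcript of 836 bases without a position in the annotation used held 41.1% and 18.5%. In counts the main group had 8470 and 9177 and this transcript 1912 and 694. Copg2, a subunit of the coatomer of transport vesicles that is expressed from the maternal copy, stood at 39.0 and 29.2 TPM with a ratio of 0.815. The genes converge and share 912 exon bases on opposite strands, so reads in that stretch cannot be assigned without strand. Mest exceeded Copg2 by 2.97 and 3.50 on the log2(TPM + 1) scale.

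Among the other pairs, Sgce (chr6:4674350-4747207), which encodes epsilon-sarcoglycan, stood at 38.6 and 43.7 TPM with a ratio of 1.02 (0.933 to 1.12). Its head-to-head neighbour Peg10 (chr6:4747306-4760517), a retrotransposon-derived gene, stood at 9.20 and 7.21 TPM. Both are paternally expressed, and Peg10 was 1.59-fold higher in replicate 1 (1.40 to 1.81) by counts. This interval spans the limit of 1.5-fold. A transcript without a position in the annotation used held 46.7% and 50.1% of the Peg10 TPM. On the log2(TPM + 1) scale the difference of Peg10 was smaller (−0.31) and did not reach 1.5-fold. Its estimated length also differed between the libraries, and the parts of length, library scaling and pseudocount in this gap were not separated. Commd1 (chr11:22896136-22982382), a regulator of copper balance expressed mainly from the maternal copy in brain, stood at 183 and 211 TPM. Zrsr1 (chr11:22972005-22976496), a paternally expressed splicing factor gene inside an intron of Commd1, stood at 4.93 and 4.38 TPM. Their difference was 4.95 and 5.30, and they share 412 exon bases on opposite strands. The upstream start group of Commd1 held 76.6% and 74.4% of its TPM, and a group 25435 bases downstream 22.1% and 24.0%.

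The remaining clusters are represented by 1 measured gene each. Plagl1 (chr10:13060504-13131694), a paternally expressed zinc finger factor that slows cell division, stood at 22.9 and 31.5 TPM with a ratio of 1.28 (1.20 to 1.36). Of its TPM, 98.1% and 97.5% came from the start group that holds the promoter shown above, although 25 transcripts are annotated and 2 reached 1 TPM in both libraries. Impact (chr18:12955852-12992950), a paternally expressed inhibitor of the kinase GCN2, stood at 45.6 and 43.7 TPM with a ratio of 0.897 (0.849 to 0.948). Trappc9 (chr15:72589620-73061204), a vesicle trafficking gene with maternal bias in brain, stood at 34.8 and 41.4 TPM with a ratio of 1.09 (1.03 to 1.15). Its upstream start group held 68.5% and 60.7% of the TPM, and a start 5394 bases downstream held 31.5% and 39.3%.

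The order in level of maternally and paternally expressed genes depended on the summary used. The 15 maternally expressed genes with a row had medians of 34.8 and 41.4 TPM and the 19 paternally expressed genes 19.1 and 31.5. On the log2(TPM + 1) scale the paternal median lay under the maternal one by 0.83 in replicate 1 and 0.39 in replicate 2 (difference −0.61 ± 0.32). With means in place of medians the difference was 0.08, so its direction turned, and among protein-coding members alone it was −0.01. The 6 long non-coding RNA genes had medians of 24.8 and 52.1 TPM and the 30 protein-coding genes 32.6 and 37.1. Of the 10 genes at 100 TPM or more, the maternally expressed were Meg3, Rian, Cdkn1c, Blcap and Commd1, and the paternally expressed Nnat, Snrpn, Ndn and Mest, beside Gnas. The first 5 in level were Nnat, Meg3, Gnas, Snrpn and Ndn in both libraries. Below them Rian lay above Mest in replicate 1 and under it in replicate 2, and Blcap, Commd1 and Cdkn1c also changed order.

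A list of 50 further genes known as imprinted was read from the same tables, and 46 had a row. Whether each is imprinted in this tissue was not measured. Of these, 34 (73.9%) reached 1 TPM in both libraries, 8 were under it in both and 4 passed it in 1 library. The list median was 11.4 and 10.2 TPM. The highest were Snurf, Inpp5f, which encodes a phosphoinositide phosphatase (439 and 340 TPM), Cd81, a tetraspanin gene (362 and 371 TPM), and Nap1l5, of the nucleosome assembly protein family (423 and 291 TPM). The Snurf level rests on bases shared with Snrpn. Those under 1 TPM in both libraries were Ins2, Nctc1, Tnfrsf23, Tspan32, Slc22a2, Slc22a3, Tfpi2 and Klf14. Of the 41 whose mean count was 10 or more, 3 were at least 1.5-fold higher in replicate 2 (10.8% of all rows were) and 5 in replicate 1 (8.47% of all rows). The widest ratio was that of Slc38a4, a paternally expressed amino acid transporter gene, at 0.30 TPM in replicate 1 and 7.53 in replicate 2, a ratio of 20.9. Rasgrf1, a paternally expressed exchange factor of neurons, stood at 17.5 and 8.59 TPM, a ratio of 0.459.

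Of 18 genes known to keep or remove the marks at imprinted loci, 15 reached 1 TPM in both libraries. Zfp57, which binds the methylated hexanucleotide, stood at 260 and 237 TPM. Trim28, its corepressor partner, stood at 204 and 232 TPM. Ctcf, the insulator protein of the H19/Igf2 control region, stood at 61.8 and 67.9 TPM, and Arid4b, a chromatin regulator, at 54.4 and 62.1. These 4 were the highest of the list. Dnmt3l, Ctcfl and Dppa3, which act mainly in germ cells and the early embryo, were under 1 TPM in both libraries. Of the 15 with a ratio, 0 were at least 1.5-fold higher in replicate 1 (8.47% of all rows were) and 1 in replicate 2 (10.8% of all rows). The latter was Uhrf1, which brings the maintenance methyltransferase to replicating DNA, at 4.50 and 7.69 TPM (ratio 1.65).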

How the data were processed

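Total RNA of the E14.5 neural tube was quantified by the authors in 2 libraries, against mm10 and GENCODE M4, as texts deposited beside the files say. The aligner, quantifier and strand mode were not given in the sources used here. Expected counts, as deposited, estimate the reads of each gene or transcript and carry no normalization (per the file headers). Deposited TPM is scaled by length to a sum of 1000000 over all rows, and deposited FPKM by length and by total reads. Percent values, per the file headers, give each transcript's part of its gene. Deposited score columns (posterior spreads and bounds) were left out.

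Symbols, 5′ ends and coordinates (1-based) came from GENCODE M21 for GRCm38, by identifier without version. Of 43346 gene rows, 42462 matched. Rows outside genes held 3.31% and 2.29% of counts, nearly all from spike-ins, and stayed out of library sizes. Expected counts were rounded to whole numbers. Ratios used TMM library sizes (edgeR 4.0.16, R 4.3.3) and a prior count of 0.5. Intervals are exact (Clopper-Pearson, 95%), and, like the floor of 3 counts, they describe counting error alone. Levels are mean TPM ± SD, and log values use a pseudocount of 1. Nothing says more of the replicates than 1 pup from each of 2 litters. Other steps used Python 3.11.15, pandas 2.3.3 and SciPy 1.17.1, and the ratio step was tested on simulated data. Alternatives used other thresholds, filters, units and DESeq2 1.42.0 or spike-in scaling. All members were named, and the other lists by their 4 highest genes and those under 1 TPM. Genes named by their ratio (Slc38a4, Rasgrf1, Uhrf1) and Snhg14 and Nespas, named for an overlap, fall outside that rule, being chosen once their values had been seen. The members and lists were chosen with earlier results of these data known.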

Additional observations from a re-analysis of the deposited data

How the results depend on the processing

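The count of imprinted genes at 1 TPM or more in both libraries (32) stayed between 28 and 32 under each alternative run, and was 32 with either library left out. The median of 34.6 TPM was 20.4 with FPKM, which is another scale, and 40.0 over only the genes at 1 TPM or more, which drops the low genes by construction, and it was 32.1 to 37.1 with 1 library left out. Of the counts past 1.5-fold, the 3 higher in replicate 2 became 13 of 33 with spike-in scaling, where 44.4% of all gene rows passed, and the 1 higher in replicate 1 (Peg10) became 0 with spike-in scaling, at 2-fold and on deposited TPM. The median log2 ratio of −0.13 became 0.42 with spike-in scaling, which shifts all ratios alike. Of the 33 single ratios, 16 left their counting interval on deposited TPM and 32 with spike-in scaling. All 33 stayed inside it with DESeq2 size factors. These intervals therefore do not cover the choice of unit or scaling. The difference of paternal from maternal medians (−0.61) became −1.07 over genes at 1 TPM or more, −0.01 over protein-coding genes (−0.58 and 0.56 in the 2 libraries) and 0.08 with means. It was −0.83 to −0.39 with 1 library left out. The cause was not tested. Differences between partners were also taken with a pseudocount of 0.1 and with FPKM. Neither can reverse the order of a pair within a library, so the sign of a difference was not tested. The size moved beyond the spread between the libraries in 6 pairs with the lower pseudocount and in 3 with FPKM. Shares of start groups from posterior mean TPM, an alternative chosen after seeing the data, moved beyond the spread between the libraries in 9 of 47 groups. Some of the 47 are the only group of a gene whose transcripts all have a position, so their share is 100% by construction and cannot move. No paired analysis was possible because there is only 1 group. Depth limits Phlda2, Slc22a18, Ascl2 and Dio3, with at most 13 counts in a library.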
